A study of Mus musculus with 2 samples.

Results

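The red cell barcodes of mouse palatal gingiva were the droplets in which Hbb-bs, Hbb-bt, Hba-a1 and Hba-a2, the 4 adult globin genes, held at least 50% of the unique molecular identifiers (UMIs, each a counted RNA molecule). By this rule 1078 of 8235 barcodes were red, with no filter on detected genes. They came from 2 single-cell RNA sequencing libraries, 474 of 6219 barcodes of the CpG ODN library (7.62%, 95% exact binomial interval 6.97 to 8.31) and 604 of 2016 barcodes of the LPS library (30.0%, 28.0 to 32.0). The barcodes were thus chosen by their measured globin share, so everything that follows about the globins, and about other RNA in the same barcodes, is a description without a test.

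Both groups were female wild type mice of 8 to 12 weeks, of the strain C57BL/6 by the labels and C57BL/6J by the methods. The palate received 3 µl of ligand at 1 µg/ml, either CpG ODN, a synthetic DNA that is recognized by Toll-like receptor 9, or LPS, a bacterial lipopolysaccharide used here as the ligand of Toll-like receptors 2 and 4, under an oral appliance for 1 h. Gingiva was taken at day 4 and digested with collagenase II and trypsin, and cells of 4 mice, the same number from each, made up the 1 library of each ligand. No untreated library was used here, and the mice of a library could not be told apart, so that no difference between the ligands could be tested. All intervals below are 95% intervals that cover counting error only.

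Mouse red cells lose their nucleus in the bone marrow and enter the blood as reticulocytes, which still hold ribosomes, mitochondria and messenger RNA. A reticulocyte can make protein from this RNA but cannot replace it, and within days it clears its organelles by autophagy and the ubiquitin system and loses most of its RNA. Adult hemoglobin joins α-globin chains, encoded here by Hba-a1 and Hba-a2, with β-globin chains, encoded in C57BL/6 mice by Hbb-bs and Hbb-bt. The heme that these chains carry is made by a pathway that starts in red cells with Alas2, the erythroid 5-aminolevulinate synthase.

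The sequences upstream of these genes are shown because the genes define the barcodes and check their identity. Each run is the 250 bases before the transcription start of RefSeq on GRCm38.p6, in the direction of transcription. Capitals mark the letters searched on both strands. They were GATAA for GATA factor sites, which reads TTATC on the opposite strand, then CACCC for the box of that name, which reads GGGTG there, and finally CCAAT for the box of that name, which reads ATTGG there. All 5 genes had an entry in the RefSeq table, and Hba-a2 is not shown because 247 of 247 aligned bases equal those of Hba-a1. The RefSeq starts need not equal the gene starts of the annotation used for the coordinates below.

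Hbb-bs, chr7:103827929-103828178, minus strand: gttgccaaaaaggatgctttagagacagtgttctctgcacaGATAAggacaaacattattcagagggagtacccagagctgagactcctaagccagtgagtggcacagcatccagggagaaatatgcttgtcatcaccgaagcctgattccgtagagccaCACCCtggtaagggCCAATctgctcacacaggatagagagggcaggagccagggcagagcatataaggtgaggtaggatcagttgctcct
Hbb-bt, chr7:103813924-103814173, minus strand: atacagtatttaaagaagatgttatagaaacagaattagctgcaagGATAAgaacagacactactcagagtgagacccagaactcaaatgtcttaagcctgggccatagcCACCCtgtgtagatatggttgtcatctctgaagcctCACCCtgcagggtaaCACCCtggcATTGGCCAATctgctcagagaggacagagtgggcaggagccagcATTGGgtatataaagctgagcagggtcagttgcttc
Hba-a1, chr11:32283422-32283671, plus strand: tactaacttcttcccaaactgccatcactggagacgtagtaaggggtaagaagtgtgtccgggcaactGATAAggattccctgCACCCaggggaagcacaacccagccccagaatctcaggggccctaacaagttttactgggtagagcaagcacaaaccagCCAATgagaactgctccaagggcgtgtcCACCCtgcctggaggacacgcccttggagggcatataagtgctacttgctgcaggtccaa
Alas2, chrX:150547167-150547416, plus strand: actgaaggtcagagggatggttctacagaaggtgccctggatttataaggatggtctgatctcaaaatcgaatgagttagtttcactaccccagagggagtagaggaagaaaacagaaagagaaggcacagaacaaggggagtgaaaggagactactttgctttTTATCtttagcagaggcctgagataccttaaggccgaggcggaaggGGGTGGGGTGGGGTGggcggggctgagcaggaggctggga

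GATAA and CACCC were found upstream of all 5 genes, and CCAAT upstream of the 4 globin genes. Of 32851 mouse promoter windows of the same length, 22.6% held GATAA, 52.0% CACCC, 33.8% CCAAT and 3.45% all 3. The upstream sequences of Hbb-bs and Hbb-bt, aligned without gaps at their best offset, had 127 of 249 bases in common, whereas their coding sequences differed at 1 of 444 bases and those of Hba-a1 and Hba-a2 at 1 of 429. These letter matches are descriptions of the sequence and no binding was measured.

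How reads can be divided between such near-identical genes depends on their 3′ ends, where this assay reads. In the last 150 bases of the annotated transcripts, none of 101 windows of 50 bases was shared between Hbb-bs and Hbb-bt (a count of 0), whereas 73 of 101 were shared between Hba-a1 and Hba-a2. The split of the α-globin UMIs into Hba-a1 and Hba-a2 is therefore uncertain, and their sum is given beside it. Whether reads shared by both genes were all counted was not tested, so that the sum may be too low.

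The red barcodes were small in RNA. They held 441859 UMIs, 0.612% of the CpG ODN library, and 1243895 UMIs, 3.22% of the LPS library, and with them 92.5% and 98.2% of all adult globin UMIs. The lowest, median and highest UMI counts of a red barcode were 500, 876 and 2756 after CpG ODN and 502, 2017 and 5673 after LPS. No barcode of either library had fewer than 500 or 502 UMIs, so the lower ends of both distributions lie at the edge of the deposited matrices: 54 and 41 red barcodes had fewer than 600 UMIs.

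No red barcode reached 800 detected genes, the minimum that the methods of the study set for a cell, in either library (0 of 474, which allows a share of up to 0.633%, and 0 of 604, up to 0.497%). The lowest, median and highest number of detected genes was 31, 69 and 385 after CpG ODN and 27, 80.5 and 280 after LPS. A filter of 800 genes would thus remove every red barcode, and red barcodes were 35.6% of the barcodes under that limit in the CpG ODN library and 81.7% in the LPS library.

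**Figure D1:**
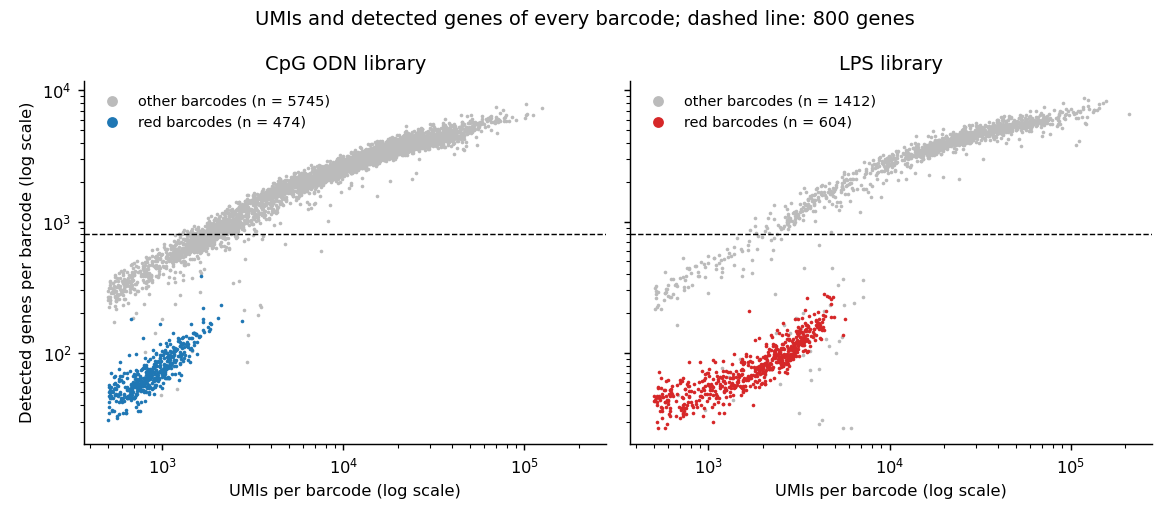
UMIs per barcode (horizontal, log scale) against detected genes per barcode (vertical, log scale) for every barcode of the CpG ODN library (left) and the LPS library (right), with red barcodes in color and other barcodes in gray; the dashed line is at 800 genes. The red barcodes form a band below the other barcodes at the same UMI count, with at most 385 and 280 detected genes.

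Other barcodes with at least 800 genes also held more UMIs in the LPS library. Those under 800 genes did not, with medians of 1418 UMIs after CpG ODN and 1184 after LPS. The median UMI count of red barcodes was 2.30 times as high after LPS as after CpG ODN, and that of the other barcodes with at least 800 genes 2.05 times as high (22680 against 11077.5). When every red barcode was thinned to 500 UMIs, the expected number of detected genes had a median of 47.7 after CpG ODN and 34.3 after LPS, which reverses the order of the unthinned medians. The UMI floor weighs differently on the libraries at such depths: with the LPS floor raised by the same ratio of 2.05, to 1023.7 UMIs, 468 of 1824 LPS barcodes were red (25.7%, 23.7 to 27.7). The share in the CpG ODN library stayed 7.62% under its own floor. The part of depth in the remaining difference was not tested.

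The label of the barcodes was checked with genes outside the rule. Alas2 (chrX:150547375-150570638) had a UMI in 467 of 474 red barcodes after CpG ODN (98.5%, 97.0 to 99.4) and in 567 of 604 after LPS (93.9%, 91.7 to 95.7), with a median of 6 and 10 UMIs per barcode. In the other barcodes with at least 800 genes, which had 11077.5 and 22680 median UMIs against 876 and 2017 in the red ones, Alas2 had a UMI in 1.37% and 2.82%. Tspo2, which moves cholesterol in maturing red cells, had 54 and 80 UMIs in the red barcodes and 1 and 2 in all other barcodes with at least 800 genes. Slc4a1, which encodes the anion exchanger band 3, had 37 and 54 UMIs in the red barcodes and 0 and 1 in those other barcodes. Alas2, Tspo2 and Slc4a1 therefore went with the label in both libraries. All of them rank among the highest folds over other barcodes, so they are a selected check. After CpG ODN and LPS, Tspo2 had a UMI in 9.49% and 9.44% of red barcodes and Slc4a1 in 6.96% and 6.13%. At least 2-fold higher in both libraries were 3 of 11 tested heme genes, 9 of 17 membrane genes and 8 of 13 enzymes. At least 2-fold lower were 1, 0 and 4 of them. Over all 14753 tested genes 2.39% were higher and 11.1% lower. With 10 or more red UMIs in each library the shares were 48.7% and 34.7%.

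Markers of other cells were sparse in the red barcodes except for those of epithelium. The 10 platelet markers together had 0 and 2 UMIs, the 7 T cell markers 0 and 1, the 7 endothelial markers 1 and 0, the 9 neutrophil markers 1 and 3, the 6 B cell markers 5 and 2, the 8 macrophage and dendritic markers 4 and 6 and the 8 fibroblast markers 14 and 15. The 15 epithelial markers had 597 and 1058 UMIs, at least 1 of them in 69.8% and 79.0% of red barcodes. Of the defining keratins, Krt14 of the basal layer had 152 and 223 UMIs and Krt76 of the palatal epithelium 120 and 212, and no more than 10 and 9 epithelial UMIs fell in any red barcode.

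The epithelial markers lay far below their level in the other barcodes with at least 800 genes, and nearer to their level in those under 800 genes. On a scale of UMIs per 1000000 UMIs outside the 4 globins (CPM), which is used for all other RNA below, the summed list had 8405 CPM in red barcodes against 65980 in other barcodes with at least 800 genes after CpG ODN, a ratio of 0.127 (0.117 to 0.138). After LPS it had 8564 against 68873 CPM, a ratio of 0.124 (0.117 to 0.132). In other barcodes under 800 genes the list had 9197 CPM after CpG ODN and 16989 CPM after LPS. Against the barcodes with at least 800 genes all 15 lay at least 2-fold lower in both libraries, as did 11.1% of 14753 tested genes. With 10 or more red UMIs in each library 11 of 11 were lower, against 34.7% of all such genes. Among the keratins with the most UMIs the ratios were alike, Krt14 at 0.123 and 0.128, Krt6a at 0.135 and 0.126, Krt13 at 0.147 and 0.114. The part of free RNA in these UMIs was not tested.

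The rule left few barcodes near its limit. Just outside it lay barcodes with 49.5% and 49.7% globin UMIs after CpG ODN and 37.6% and 43.4% after LPS, and just inside it barcodes with 52.9% and 53.5% and with 51.5% and 59.9%. The median globin share of red barcodes was 86.4% after CpG ODN and 91.0% after LPS. Barcodes with 5 to 50% globin UMIs numbered 33 and 11, of which 16 and 8 had at least 800 genes. No doublet caller was run on red barcodes.

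Among the counted globin UMIs, the β-globin genes outweighed the α-globin genes, whose sum may be too low because of shared reads. Hbb-bs held 67.3% of them after CpG ODN (67.1 to 67.4) and 68.9% after LPS (68.8 to 69.0), and Hbb-bt 11.2% and 10.8%. Hba-a1 held 13.0% and 12.3% and Hba-a2 8.63% and 7.97%, so that the α-globins together held 21.6% and 20.3%. All 4 had a UMI in every red barcode of both libraries.

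The make-up of the globin UMIs was also taken outside the red barcodes. In other barcodes with at least 800 genes Hbb-bs held 70.6% and 72.1% of the globin UMIs, Hbb-bt 9.23% and 10.3%, and the α-globins 20.2% and 17.5%. In other barcodes under 800 genes Hbb-bt held 10.04% after CpG ODN and 5.20% (4.51 to 5.96) of 3749 globin UMIs after LPS, 98.3% of which lay in 3 barcodes. A globin UMI was found in 26.6% of the barcodes with at least 800 genes after CpG ODN and 69.5% after LPS, with a median of 0 and 1 per barcode. Most of their globin UMIs, 52.7% and 76.1%, lay in the 16 and 8 barcodes with at least 5% globin. Alas2 had 8.44 UMIs per 1000 globin UMIs in red barcodes after CpG ODN and 10.9 in those other barcodes, and 6.18 and 7.45 after LPS.

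The embryonic globins were at or near 0. Hbb-y had 1 and 3 UMIs in the red barcodes, Hbb-bh1 0 and 2, and Hbb-bh2 and Hba-x had 0 in both libraries. The θ-globin genes of the α cluster, Hbq1a and Hbq1b, were present at low level with 28 and 92 UMIs and 38 and 74 UMIs. In the other barcodes with at least 800 genes they had no more than 4 UMIs in a library.

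What remained when the globins were set aside was a small RNA pool held by few genes. The red barcodes had 71027 other UMIs after CpG ODN and 123544 after LPS, with lowest, median and highest values per barcode of 38, 115 and 733 and of 30, 166 and 1286. The 20 leading genes held 48.8% and 50.5% of this pool, against 17.4% and 16.9% in other barcodes with at least 800 genes. In all, 3826 and 4691 genes had at least 1 UMI.

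The pool was compared gene by gene with that of the other barcodes with at least 800 genes. Of 14753 genes with at least 10 UMIs in the red and other barcodes together, in both libraries, 353 (2.39%) were at least 2-fold higher in the red barcodes of both libraries and 1633 (11.1%) at least 2-fold lower. Most genes had too few red UMIs to be called. Of 421 genes that had 10 or more UMIs in red barcodes of each library, 205 (48.7%) were higher and 146 (34.7%) lower. The median log2 fold over these was 1.03 and 0.99. The counts of the gene lists are to be read against both sets of shares. A minimum of red UMIs leaves out genes that are scarce in red barcodes. Counts under it therefore lean to the higher genes and describe only the genes that reached it. Because the genes share 1 total, a few very abundant RNAs press the CPM of all others down.

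**Figure D2:**
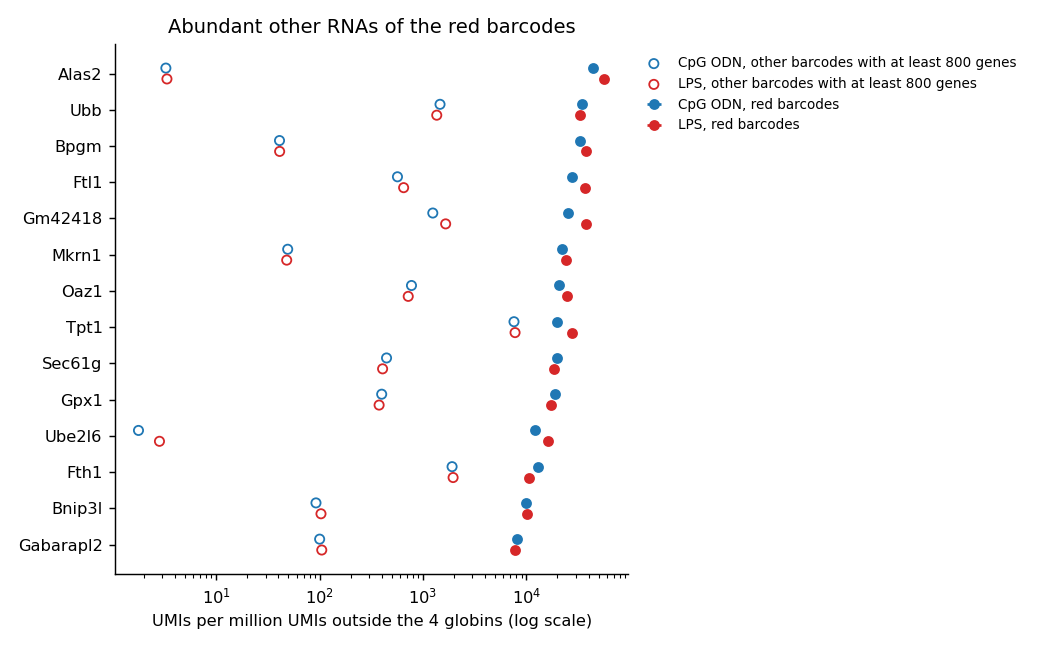
CPM outside the 4 globins (horizontal, log scale) of genes that led the other RNA of red barcodes, leaving out mitochondrial and ribosomal protein genes among others; filled points are red barcodes with 95% counting intervals, open points other barcodes with at least 800 genes, in blue for CpG ODN and red for LPS. Alas2 and Ube2l6 lie between 11995 and 56053 CPM in red barcodes and between 1.77 and 3.34 CPM in the other barcodes.

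Of 11 genes of heme synthesis, 3 were higher in both libraries and 1, Cpox, was lower, with the first and last enzymes of the pathway far ahead. With 10 or more red UMIs in each library, which Cpox did not reach, 3 of 3 were higher, against 48.7% of all such genes. Alas2 had 44054 CPM after CpG ODN and 56053 after LPS, 13510 and 16788 times its level in the other barcodes with at least 800 genes. Fech, ferrochelatase, which inserts the iron, had 5519 and 7026 CPM, 207 and 221 times that level. Urod, which decarboxylates uroporphyrinogen, had 19 and 22 UMIs, 13.9 and 8.83 times that level. Of the 8 remaining genes of the list, including Alad, Cpox and the transporter Abcb10, no gene had more than 2 UMIs in a library.

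Of 11 genes of iron uptake and storage, 7 were at least 2-fold higher in the red barcodes of both libraries and 1, Pcbp1, was lower. With 10 or more red UMIs in each library, which Pcbp1 did not reach, 7 of 7 were higher, against 48.7% of all such genes. Ftl1, the ferritin light chain, had 27609 and 37128 CPM, 48.7 and 57.1 times the level in the other barcodes, and Fth1, the heavy chain, 13108 and 10652 CPM, 6.85 and 5.44 times. Slc25a37, mitoferrin, which carries iron into mitochondria, was 140.1 and 141 times as high, and Ncoa4, which delivers ferritin to autophagy, 95.8 and 85.0 times. Isca1 and Iscu, which build iron-sulfur clusters, were 235 and 287 times and 32.6 and 32.1 times as high. Tfrc, the transferrin receptor by which red cell precursors take up iron, had 2 UMIs in each library.

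Of 23 tested genes of organelle clearance and protein breakdown, 20 were higher and 1 lower. Of the 18 with at least 10 red UMIs in each library 17 were higher and 1 lower, against 48.7% and 34.7% of all such genes. The median log2 fold over the 18 was 5.54 and 5.15. Summed, the list had 139243 and 148805 CPM in red barcodes, 26.8 and 25.2 times the level in the other barcodes with at least 800 genes. Ubb, which encodes ubiquitin, had 34874 and 33187 CPM (23.9 and 24.4 times), Mkrn1, a ubiquitin ligase, 22090 and 24445 CPM (449 and 508 times), and Ube2l6, a conjugating enzyme for ubiquitin and ISG15, 11995 and 16358 CPM (6769 and 5786 times). Bnip3l, the mitophagy receptor NIX that reticulocytes use to remove mitochondria, was 109 and 97.8 times as high, and the autophagosome genes Gabarapl2 and Map1lc3b 81.0 and 74.1 times and 24.1 and 21.7 times. Ube2o, a ubiquitin ligase that clears ribosomal proteins in reticulocytes, was 179 and 168 times as high.

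Tent5c of the clearance list was rare in the other barcodes. This gene, which extends poly(A) tails, had 7828 and 7042 CPM, 1694 and 1085 times as high as in the other barcodes with at least 800 genes. Its UMIs lay in 61.2% and 58.9% of red barcodes and in 4.66% and 10.6% of the other, deeper barcodes.

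Enzymes that protect hemoglobin or serve its function were divided. Of 13 tested, 8 were higher and 4 lower. With 10 or more red UMIs in each library 8 of 8 were higher, against 48.7% of all such genes. Bpgm, which makes the 2,3-bisphosphoglycerate that lowers oxygen affinity, had 32959 and 37493 CPM, 804 and 912 times the other barcodes. Gpx1, glutathione peroxidase, had 18894 and 17281 CPM (47.4 and 45.9 times), Car2, carbonic anhydrase, 2703 and 1287 CPM (763 and 276 times), and Prdx2, peroxiredoxin, 4829 and 4509 CPM (7.48 and 6.88 times). The 4 lower genes, Cyb5r3, Sod1, Hk1 and Pgam1, had no more than 7 UMIs in a library and so fell outside the minimum of 10.

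Of 17 tested genes of the red cell membrane and skeleton, 9 were higher and 0 lower. With 10 or more red UMIs in each library 7 of 7 were higher, against 48.7% of all such genes. Epb41, protein 4.1, had 6350 and 5447 CPM and was 251 and 232 times as high, and Cd24a, a surface protein of red cell precursors, 11.7 and 10.1 times. Slc4a1 and Tspo2, given above, were among the higher genes. Sptb, Ank1, Epb42 and Rhd had no more than 9 UMIs in a library and Rhag and Ermap 0 in both. Several genes outside the lists were as steeply divided between red and other barcodes. Rsad2, the antiviral protein viperin, had 132 and 237 UMIs in red barcodes and 54 and 30 in the others, 2428 and 2375 times as high in CPM. Apol11b had 52 and 68 UMIs in red barcodes and 1 and 3 in the others, and Tspan33, a tetraspanin, 34 and 39 against 23 and 8. At this depth an RNA of the membrane list with 0 UMIs was not detectable and need not be absent.

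Factors of erythroid transcription had little RNA left, and of 7 tested 4 were higher and 1, Ldb1, lower. Only 2 had 10 or more red UMIs in each library. Both were higher, against 48.7% of all such genes. Gata1 and Tal1 had at most 1 UMI in a library, and Klf1 and Gfi1b 0 in both. Lmo2, a bridging cofactor of these factors, had 24 and 43 UMIs (66.8 and 110.5 times the other barcodes) and E2f2, a factor of the cell cycle, 17 and 38 (51.3 and 100.2 times). The 8 genes of dividing cells had 15 and 9 UMIs together, 0.277 and 0.118 times the level of the other barcodes.

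RNA that stays in the nucleus was scarce, with 4 of 6 genes lower and 0 higher. Only 2 had 10 or more red UMIs in each library. Both were lower, against 34.7% of all such genes. Malat1 had 451 and 356 CPM in red barcodes, 0.0564 and 0.0525 times its level in the other barcodes with at least 800 genes. A Malat1 UMI was found in 6.12% and 6.79% of red barcodes against 98.9% and 99.2% of the others. Of the other nuclear RNAs, Neat1 had 6 and 15 UMIs. The immediate early genes that dissociation can induce were also low, 10 of 11 at least 2-fold lower (Fos 0.170 and 0.131 times, Jun 0.121 and 0.127 times), with Jund as the exception at 2.73 and 2.91 times. Over all 14753 tested genes 11.1% were lower. With 10 or more red UMIs in each library 3 of 4 immediate early genes were lower, against 34.7% of all such genes.

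Mitochondrial transcripts were a large part of the pool and ribosomal protein transcripts a small one. The 13 mitochondrial genes held 19.2% of the other UMIs of red barcodes after CpG ODN and 14.9% after LPS, against 4.24% and 4.70% in the other barcodes with at least 800 genes, and all 13 were at least 2-fold higher in both libraries. Of all genes with 10 or more red UMIs in each library, 48.7% were higher. In other barcodes under 800 genes the mitochondrial genes held 10.6% and 49.9%. Ribosomal protein genes held 9.24% and 9.56% in red barcodes against 30.9% and 29.4% in the barcodes with at least 800 genes. Gm42418, a locus that overlaps ribosomal RNA repeats, had 25159 and 38059 CPM, 20.2 and 23.0 times as high, and which of its UMIs come from ribosomal RNA was not tested.

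**Figure D3:**
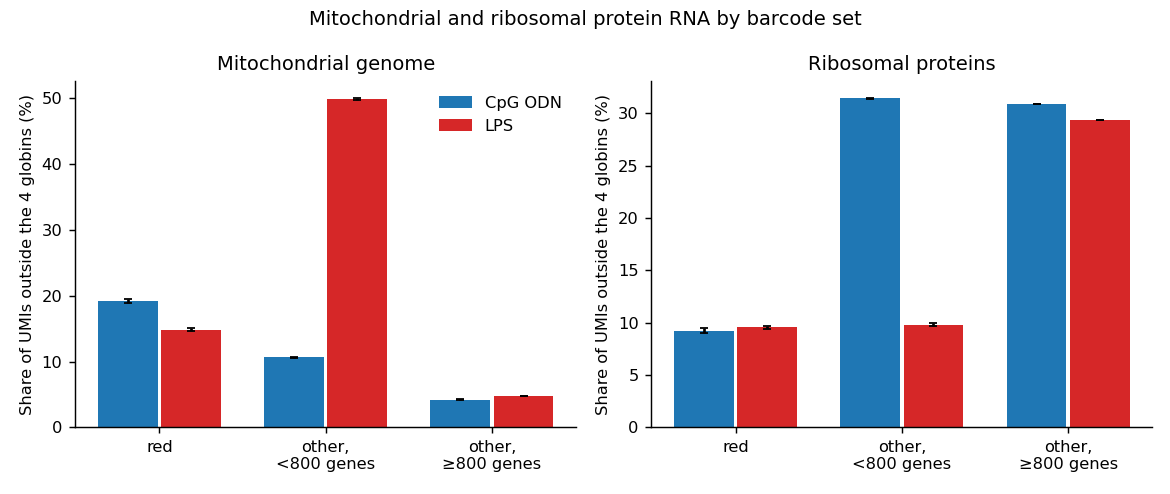
Share of the UMIs outside the 4 globins (vertical, %) from the mitochondrial genome (left) and from ribosomal protein genes (right), for red barcodes and for other barcodes under 800 and with at least 800 detected genes; blue bars are CpG ODN, red bars LPS, with 95% counting intervals. Red barcodes have 19.2% and 14.9% mitochondrial and 9.24% and 9.56% ribosomal protein UMIs.

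The mitochondrial share was uneven among the red barcodes. Its lowest, median and highest value per barcode was 0, 9.06 and 88.0% after CpG ODN and 0, 9.07 and 89.1% after LPS, and it reached 40% in 36 and 51 barcodes. The 19 and 7 barcodes with 50 to 70% globin UMIs had 65.8% and 63.0% mitochondrial RNA in the rest, whereas the 54 and 375 barcodes with at least 90% globin had 10.2% and 10.3%. The red barcodes of the lowest globin share thus held more mitochondrial RNA, and had Alas2 at 10455 and 11756 CPM against 64682 and 72051 CPM at the highest. Their median number of other UMIs was 386 and 375, against 61 and 146 at the highest. The part of mitochondrial RNA in the Alas2 difference was not tested.

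Red barcodes also differed among themselves in the make-up of their β-globin RNA, a split noticed after the data had been seen. The Hbb-bt share of the globin UMIs had a lowest, median and highest value of 1.07, 10.8 and 18.7% after CpG ODN and 0.263, 9.13 and 21.8% after LPS. It was under 6% in 59 and 224 barcodes, between 6 and 10% in 143 and 102, and at least 10% in 272 and 278. Under 3% lay 9 barcodes after CpG ODN (1.90%, 0.872 to 3.57) and 144 after LPS (23.8%, 20.5 to 27.4).

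Barcodes with a low Hbb-bt share held less RNA. The median UMI count was 598, 777 and 1000 from the lowest to the highest of these bands after CpG ODN and 967.5, 1980 and 2868 after LPS, and the median number of other UMIs 78, 97 and 143.5 and 92.5, 155 and 260.5. After thinning to 500 UMIs the number of detected genes hardly changed, with medians of 45.1, 45.6 and 50.3 and of 33.1, 32.0 and 36.7. Low counts and the lower edge of the matrices meet here: no CpG ODN barcode under 6% (a count of 0) had as many as 1023.7 UMIs, whereas 102 of the 224 LPS barcodes did. At that floor 21.8% of the LPS red barcodes had a share under 6%, against 12.4% in the CpG ODN library at its own.

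**Figure D4:**
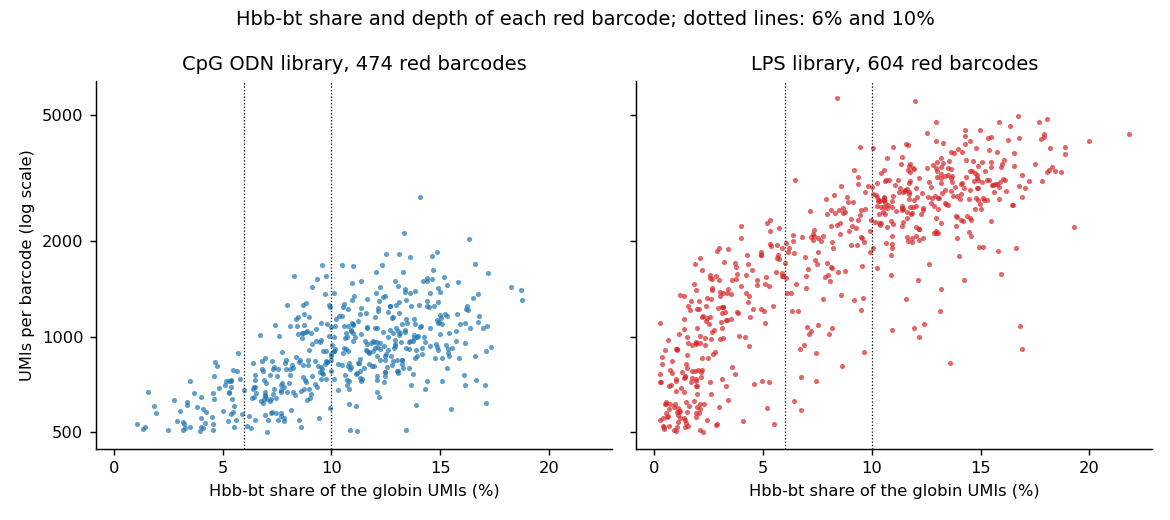
Hbb-bt share of the globin UMIs (horizontal, %) against UMIs per barcode (vertical, log scale) for each red barcode of the CpG ODN library (left, n = 474) and the LPS library (right, n = 604); dotted lines mark 6% and 10%. UMI counts climb with the Hbb-bt share in both libraries, and 144 LPS barcodes lie under 3%.

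Part of the other RNA differed along this split in both libraries. Of 182 genes that reached 50 UMIs in red barcodes in each library, 59 (32.4%) were at least 2-fold higher in barcodes of at least 10% Hbb-bt than in those under 6% in both libraries, and 13 (7.14%) at least 2-fold lower. The counting interval of the fold after CpG ODN included 1 for 18 of the 59 and for 2 of the 13, and after LPS for 0 of both. The median log2 fold over the 182 was 0.25 and 0.61. The 182 genes entered by their total over all red barcodes. Of the other UMIs, 47818 after CpG ODN and 80706 after LPS lay at 10% or more, against 5647 and 23089 under 6%. The minimum thus favors genes that are high at 10% or more, so 59 against 13 is a description only. The genes named for this split outside the fixed lists were chosen after their values had been seen.

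Enzymes led the higher genes, 7 of 8 tested, against 32.4% of the 182 genes. Gpx1 had 2656, 15260 and 22146 CPM over the bands after CpG ODN and 390, 9975 and 23902 after LPS. The LPS barcodes under 6% held 9 of its UMIs, and a Gpx1 UMI was found in 3.57% of them against 75.5% of those with at least 10%. At a thinned depth of 500 UMIs the share was 1.62% under 3% Hbb-bt and 45.3% at 10% or more after LPS, and 7.60% under 6% and 52.3% at 10% or more after CpG ODN. Bpgm had 11688, 25054 and 38375 CPM after CpG ODN and 10221, 23799 and 48646 after LPS.

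Of 13 tested genes of organelle clearance and protein breakdown, 7 were higher and 1 lower along the split. Over all 182 genes the shares were 32.4% and 7.14%. Mkrn1 had 6906, 21239 and 24196 CPM and 5717, 18279 and 31311 CPM. Map1lc3b was 10.8 times (3.65 to 52.6) and 9.73 times (5.94 to 17.1) as high at the upper end, and Bnip3l 2.29 and 2.75 times.

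Of 5 tested membrane genes 3 were higher, Cd24a and Bsg among them, against 32.4% of the 182 genes. Cd24a had 3 and 15 UMIs at the lower and 228 and 427 at the upper end, 8.98 times (3.03 to 43.8) and 8.14 times (4.88 to 14.7). Bsg rested on 2 and 4 UMIs at the lower end, and its interval after CpG ODN includes 1 (0.547 to 18.2). Outside the lists, Rsad2 had 1 and 2 UMIs at the lower and 100 and 216 at the upper end. Epb41 hardly moved, with 5844 and 6525 CPM after CpG ODN and 5371 and 5749 CPM after LPS.

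Several leading RNAs moved by less than 2-fold. Alas2 had 45334, 47033 and 42808 CPM over the bands after CpG ODN, where the intervals of the lowest and highest band overlap, and 48898, 55294 and 58286 CPM after LPS. Ubb had 28511 and 37183 CPM at the ends after CpG ODN and 30231 and 35053 CPM after LPS, and Ube2l6 10979 and 12025 CPM and 12733 and 17694 CPM. The intervals of the lowest and highest band did not overlap for Alas2 and Ube2l6 after LPS and for Ubb in both libraries. The ferritin light chain Ftl1 was lower at the upper end, with 32230 and 25743 CPM and with 46516 and 33851 CPM, differences of less than 2-fold.

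The lower genes were mostly parts of the ribosome. Of 46 ribosomal protein genes tested 10 were at least 2-fold lower and 0 higher, with a median log2 fold of -0.91 and -0.86. Over all 182 genes 7.14% were lower and 32.4% higher. Rpl41 had 16646 CPM under 6% and 7529 CPM at 10% or more after CpG ODN, and 20010 and 8079 CPM after LPS. Ribosomal protein genes together fell from 15.1 to 8.28% of the pool and from 14.98 to 7.98%. The remaining lower genes included the Rpl41-like locus Gm10076, whose counts are uncertain, and Mt4, an epithelial metallothionein. Mitochondrial RNA held 27.3, 22.2 and 17.1% over the bands after CpG ODN and 25.2, 25.9 and 9.21% after LPS, and the epithelial list 14344, 8997 and 7487 CPM and 11954, 8811 and 7534 CPM. The parts of depth, free RNA and mitochondrial RNA in the split were not tested.

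**Figure D5:**
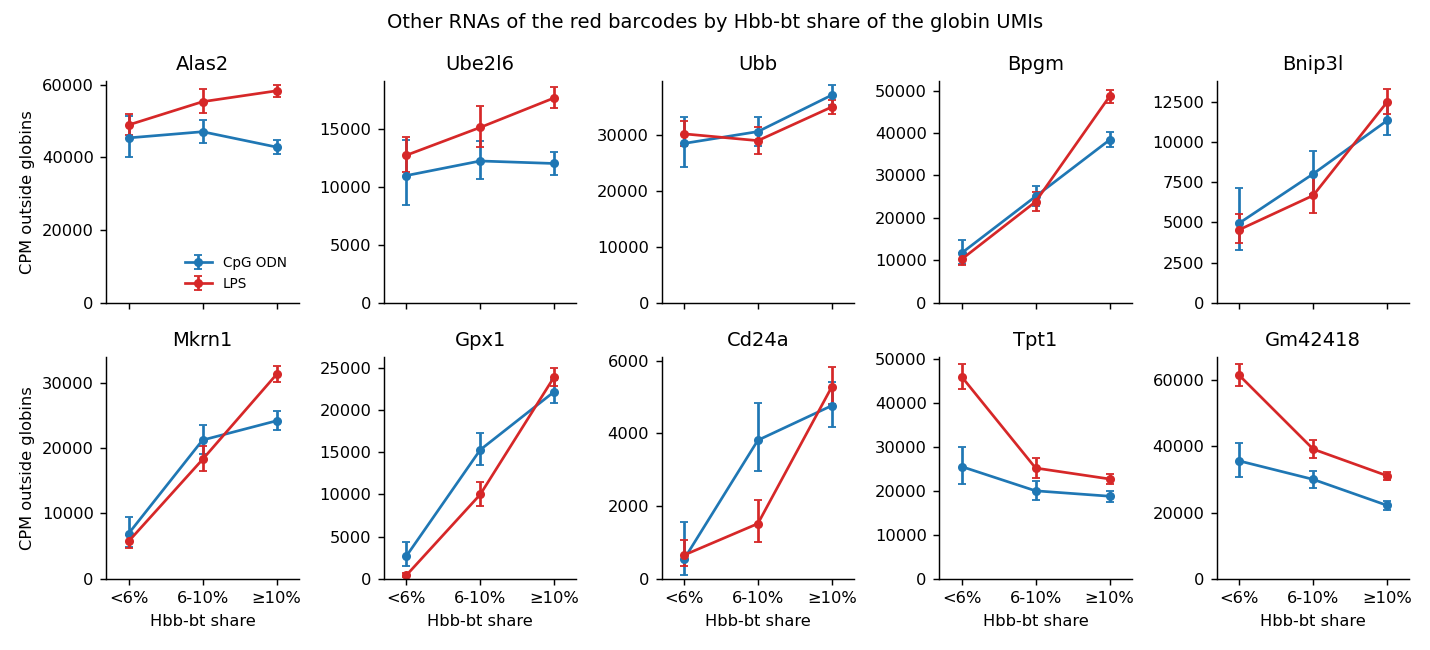
CPM outside the 4 globins (vertical, from 0, scaled for each gene) of 10 genes in red barcodes with an Hbb-bt share under 6%, of 6 to 10% and of at least 10% (horizontal); points with 95% counting intervals, blue for CpG ODN and red for LPS. Bpgm, Bnip3l, Mkrn1, Gpx1 and Cd24a are higher at 10% or more than under 6% in both libraries, Tpt1 and Gm42418 fall, and Alas2 stays between 42808 and 58286 CPM.

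At matched depth Bpgm kept its direction along the split where barcodes allowed a comparison, and other genes did so only in part. Among LPS red barcodes with 800 to 1500 UMIs, 91 had a share under 6%, 23 of 6 to 10% and 10 of at least 10%. Bpgm had 9202, 14631 and 28646 CPM in them, and Gpx1 had 1, 9 and 9 UMIs. After CpG ODN only 3 barcodes under 6% had that depth. Bpgm had 29068 CPM in the 60 barcodes of 6 to 10% and 38341 CPM in the 204 of at least 10%, while Gpx1 had 21965 and 19697 CPM, with overlapping intervals. The difference in Gpx1 between those upper bands was thus not seen at this depth after CpG ODN. Mkrn1 had 4501, 10241 and 32986 CPM over the bands after LPS, and 26664 and 25048 CPM in the upper bands after CpG ODN. Bnip3l had 4001, 2926 and 6076 CPM after LPS, with overlapping intervals at the ends, and 8305 and 11329 CPM after CpG ODN. Cd24a had 5, 6 and 1 UMIs after LPS, and 5136 and 4640 CPM after CpG ODN.

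The red barcodes of the libraries were then compared with each other. Of 389 genes that reached 30 UMIs over the red barcodes of both libraries, 16 (4.11%) were at least 2-fold higher after CpG ODN and 8 (2.06%) at least 2-fold lower, and the median log2 ratio of CpG ODN to LPS was 0.10. The counting interval of the ratio excluded 1 for 84 of the 389. With 1 library per ligand such differences cannot be told apart from differences between libraries, pooled mice or digests.

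The ratios of red cell genes between the libraries lay on both sides of 1. The ratio of CpG ODN to LPS was 0.786 for Alas2 (0.753 to 0.820), 0.879 for Bpgm, 0.904 for Mkrn1, 0.993 for Bnip3l (0.905 to 1.09), 1.05 for Ubb and 1.09 for Gpx1. It was lower for Ftl1 (0.744, 0.705 to 0.784), Ube2l6 (0.733, 0.676 to 0.795), Isca1 (0.618, 0.533 to 0.713) and Hbq1a (0.529, 0.334 to 0.816). Of the 18 tested genes of organelle clearance and of the 7 of iron handling none passed 2-fold (counts of 0), to be read against 4.11% and 2.06% over all genes, and of the 8 tested enzymes 1 did, Car2, with 192 and 159 UMIs (2.10, 1.69 to 2.61). Among red barcodes with 800 to 1500 UMIs the Car2 ratio was 5.01 (2.06 to 15.8). In that range the libraries also differed in Hbb-bt share, as given below. Those of at least 10% Hbb-bt had 1964 CPM of Car2 after CpG ODN (69 UMIs). After LPS they had 2604 CPM (3 UMIs), with overlapping intervals. The part of the Hbb-bt share in the Car2 ratio was not tested. Mitochondrial RNA summed over the red barcodes was 1.29 times as high after CpG ODN (1.26 to 1.32). Its median share per barcode was alike, 9.06% after CpG ODN and 9.07% after LPS. A share of at least 40% was reached in 7.59% and 8.44% of red barcodes. In barcodes of at least 10% Hbb-bt the ratio was 0.734 for Alas2, 0.789 for Bpgm, 0.927 for Gpx1 and 1.85 for Car2 (1.47 to 2.34).

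The direction of the Bpgm ratio turned with the barcodes used. Among red barcodes with 800 to 1500 UMIs the ratio was 3.04 for Bpgm. In that range 91 LPS barcodes had an Hbb-bt share under 6%, 23 of 6 to 10% and 10 of at least 10%, against 3, 60 and 204 CpG ODN barcodes. As a mean over barcodes the ratio was 1.13.

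The lowest ratios included epithelial and secreted proteins. Wfdc18, a secreted whey acidic protein family member, had 3 UMIs after CpG ODN and 157 after LPS (ratio 0.0332, 0.00678 to 0.0989), and 107 and 2134 CPM in the other barcodes with at least 800 genes. Krt4, a keratin of upper epithelial layers, had 14 and 78 UMIs (ratio 0.312), and 1163 and 4795 CPM in those others. Lor, loricrin of the cornified layer, had 9 and 34 UMIs (0.460), and 204 and 1381 CPM in those others. With a globin limit of 90% the CpG ODN library had 0 UMIs of Krt4 and of Lor, so that their ratios there, at most 1.13 and 2.55 with 3 counts in place of 0, give no direction. The remaining lowest ratios were those of AY036118 (0.431) and Lars2 (0.474), both with an interval below 1, at 105 and 141 CPM and at 60.9 and 115 CPM in those others. The highest were those of Atp5j2 (2.46), Rhoa (2.27), Lgals7 (2.22), Wdr26 (2.17) and Cir1 (2.15), none of which passed 69 UMIs in a library. The other barcodes with at least 800 genes had 547 and 492 CPM of Atp5j2 and 8110 and 7392 CPM of Lgals7 after CpG ODN and LPS. Their levels of Rhoa (289.99 and 291.97 CPM) and Cir1 (38.8 and 39.9) were nearly equal after CpG ODN and LPS. Their level of Wdr26 (64.4 and 73.3) was lower after CpG ODN, unlike in the red barcodes. The Lgals7 ratio was 1.001 (0.749 to 1.33) with a globin limit of 30% and 1.10 (0.551 to 2.37) among red barcodes with 800 to 1500 UMIs. AY036118 lies within Gm42418 on the opposite strand (chr17:39847113-39848035), so the counts of both are uncertain.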

How the data were processed

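For each library the authors deposited a filtered matrix of raw UMI counts for 32285 genes, the output of Cell Ranger 4.0.0 per the file headers. The genome build is not given in the sources used here. Gene coordinates were taken by identifier from GENCODE M21 (GRCm38), which holds 32235 of the identifiers. The deposited counts were used without normalization. A barcode was red when the 4 adult globin genes held at least 50% of its UMIs. Other RNA was summed over barcodes and given as CPM of the UMIs outside the globins, with exact Poisson, Clopper-Pearson and conditional binomial intervals (95%). A count of 0 was set to 3 counts per set before a fold was called at 2 or 0.5. Total UMIs were 72173148 after CpG ODN and 38656738 after LPS. The libraries shared 5 barcode sequences, 0 of them red after CpG ODN and 4 red after LPS. Each comparison used 1 library per ligand, so there was no test, and barcodes were not taken as replicates. Intervals cover counting error only. No doublet caller was run.

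Named genes are those of 20 marker and pathway lists, the 15 highest CPM, the 15 highest folds over other barcodes and the 5 highest and 5 lowest ratios between libraries. Ahsp and Aldoa were not analysed, and some genes counted in the lists are not reported here by name. The members and lists were chosen with earlier results of these data known, and the bands of Hbb-bt share after the values were seen. Alternatives were other globin limits, denominators, comparison sets, minimum counts and thinning depths. Fold calls were tested on simulated data. Promoters came from RefSeq and transcripts from GENCODE. The software was numpy 2.4.6 and scipy 1.17.1 for the intervals, matplotlib 3.10.9 for the plots and pandas 2.3.3, all under Python 3.11.15.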

Additional observations from a re-analysis of the deposited data

How the results depend on the processing

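No paired analysis was possible because only 1 library per ligand was made. A globin limit of at least 90% left 54 red barcodes after CpG ODN (0.868%) and 375 after LPS (18.6%), with medians after CpG ODN of 699 UMIs and 45.5 genes, Hbb-bs at 68.3% and 69.6%, the α-globins at 22.3% and 20.2%, Alas2 at 89.8% of CpG ODN barcodes thinned to 500 UMIs, 165 genes higher and 111 lower than in other barcodes, and 26 genes higher and 17 lower after CpG ODN. A limit of at least 30% gave 27 genes higher after CpG ODN. Thinning to 1000 UMIs gave Alas2 in 99.8% and 98.2% of red barcodes, against 95.4% and 85.7% at 500. Requiring 1 UMI in each library gave 424 genes higher and 166 lower after CpG ODN. A denominator without mitochondrial and ribosomal protein genes gave 4 lower. Against other barcodes under 800 genes 449 genes were lower. Requiring at least 10 red UMIs in each library, added after seeing the data, gave 205 higher and 146 lower.

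Both alternatives that follow were also added after seeing the data. Red barcodes with 800 to 1500 UMIs had medians of 1019 and 1133 UMIs and 79 and 56 genes, Hbb-bs at 66.4% and 73.8%, the α-globins at 21.4% and 21.7%, and 69 genes higher and 20 lower after CpG ODN. Red barcodes with at least 10% Hbb-bt had medians of 1000 and 2868 UMIs and 78 and 109 genes, Hbb-bs at 65.5% and 66.5% and the α-globins at 21.3% and 19.8%.

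Some ratios turned. With 800 to 1500 UMIs the CpG ODN/LPS ratio was 3.04 for Bpgm, 1.04 for Isca1 and 1.04 for Ube2l6, and as a mean over barcodes 1.13 for Bpgm. With a 90% limit it was at most 1.13 for Krt4 and 2.55 for Lor, on 0 UMIs after CpG ODN, which gives no direction. The Lgals7 ratio fell from 2.22 to 1.001 with a 30% limit, and that of Car2 was 5.01 with 800 to 1500 UMIs. In that range of UMIs the libraries also differed in Hbb-bt share, and its part in the Bpgm and Car2 ratios was not tested. Krt14 after CpG ODN was 1.22 times as high as in other barcodes under 800 genes. The cause was not tested. Of the other values, 66 of single genes moved by more than their counting interval, and 88 main values and 203 of single genes did not. With 115 and 166 other UMIs in the median barcode, a share of barcodes with a UMI of a rare RNA is limited by depth.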
